A study of Mus musculus with 9 samples.

Results

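The 39 Hox genes of the mouse, the homeobox transcription factor genes of the Hoxa, Hoxb, Hoxc and Hoxd clusters, were followed in RNA sequencing libraries of embryonic stem (ES) cells. They were taken by name alone, as Hox with a cluster letter from a to d and a paralogue number, from a table of 33495 genes. Hoxa contributed 11 of them, Hoxb 10, Hoxc 9 and Hoxd 9. Hox proteins bind DNA through a homeodomain and assign identity along the head-to-tail axis of the embryo. Genes with low paralogue numbers lie at the 3′ end of each cluster and act in the hindbrain and neck, and genes with high numbers lie at the 5′ end and act in the trunk, tail, limbs and genital region. In ES cells the clusters are kept silent by Polycomb complexes, and retinoic acid, which acts through RAR and RXR nuclear receptors, is known to activate them beginning at the 3′ end.

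The cells were RF8, a mouse ES cell line, transfected with Nanog carrying the L122A mutation (L122A), with wild-type Nanog (WT) or with enhanced green fluorescent protein (EGFP). Nanog is a homeodomain protein of the pluripotency network, and EGFP, a fluorescent protein, is a common control insert. Each transfectant was sequenced after culture with 5 µM retinoic acid (RA) and no LIF, after culture without LIF (no-LIF), and from the routine culture with 1000 units of LIF per ml (LIF), the cytokine that maintains mouse ES cells. The routine medium held fetal calf serum and puromycin. That gave 9 libraries of total RNA, 1 for each combination. The sources used here do not give the time in culture, the vector, or whether a transfectant is a clone or a pool.

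Total counts per library ran from 24166395 to 28714988, and levels are given as CPM, counts scaled to a library size adjusted by the TMM method, or, between genes, as deposited FPKM, which also divides by gene length. The libraries differed in their cell-type markers. The summed level of 9 ES cell markers was 828, 313 and 20.6 CPM in the L122A, WT and EGFP RA libraries, against 4456, 4024 and 2160 CPM without LIF. The list holds Nanog, the transfected gene, and the 8 others summed to 570, 118 and 19.7 CPM with RA. All 9 stood at 1 CPM or more in the L122A and WT RA libraries and 5 of 9 did so in the EGFP RA library. Summed fibroblast markers were at 22.9, 52.3 and 398 CPM in the L122A, WT and EGFP RA libraries, with 3, 6 and 7 of 8 markers at 1 CPM or more and Lum at 0 in each. Markers of extraembryonic endoderm summed to 125, 359 and 110 CPM in the same libraries, of which Lama1 held 67.4, 209 and 20.5 CPM. Neural markers summed to 52.2, 65.1 and 212 CPM, of which Nes held 38.2, 54.45 and 186 CPM, with the neural gene Sox1 at 0.168, 0 and 0 CPM. Mesoderm markers summed to 113, 39.8 and 3.73 CPM there, of which Meox1 held 111, 38.4 and 2.42 CPM, with T (brachyury) at 0.196, 0.0313 and 0 CPM. The part of these differences in the Hox results was not tested, and in bulk RNA fewer cells of a type and less RNA per cell cannot be told apart.

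RA raised genes of all 4 Hox clusters. The clusters' sums were higher with RA in all 3 transfectants for Hoxa, Hoxb and Hoxc, but summed Hoxd was 13.5, 15.3 and 18.9 CPM with RA in L122A, WT and EGFP, against 24.4, 2.28 and 2.21 CPM without LIF, and so lower with RA in L122A. Hox genes together accounted for 784, 708 and 443 CPM in the L122A, WT and EGFP RA libraries, against 33.1, 9.79 and 23.3 CPM without LIF and 35.3, 8.27 and 28.2 CPM with LIF. In the RA libraries 29, 30 and 32 of the 39 genes stood at 1 CPM or more, against 7, 3 and 6 genes without LIF and 9, 2 and 7 with LIF, each in the order L122A, WT, EGFP. For 30 of the 39 genes every RA library lay above all 6 other libraries. These were 9 of 11 Hoxa genes, 10 of 10 Hoxb genes, 7 of 9 Hoxc genes and 4 of 9 Hoxd genes. Over the genome the same separation held for 22.5% of the genes tested and 13.5% of the genes with any count. The exceptions were Hoxd3 and 8 genes with paralogue numbers of 10 or more (Hoxa11, Hoxa13, Hoxc11, Hoxc12, Hoxd10, Hoxd11, Hoxd12 and Hoxd13).

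**Figure D1:**
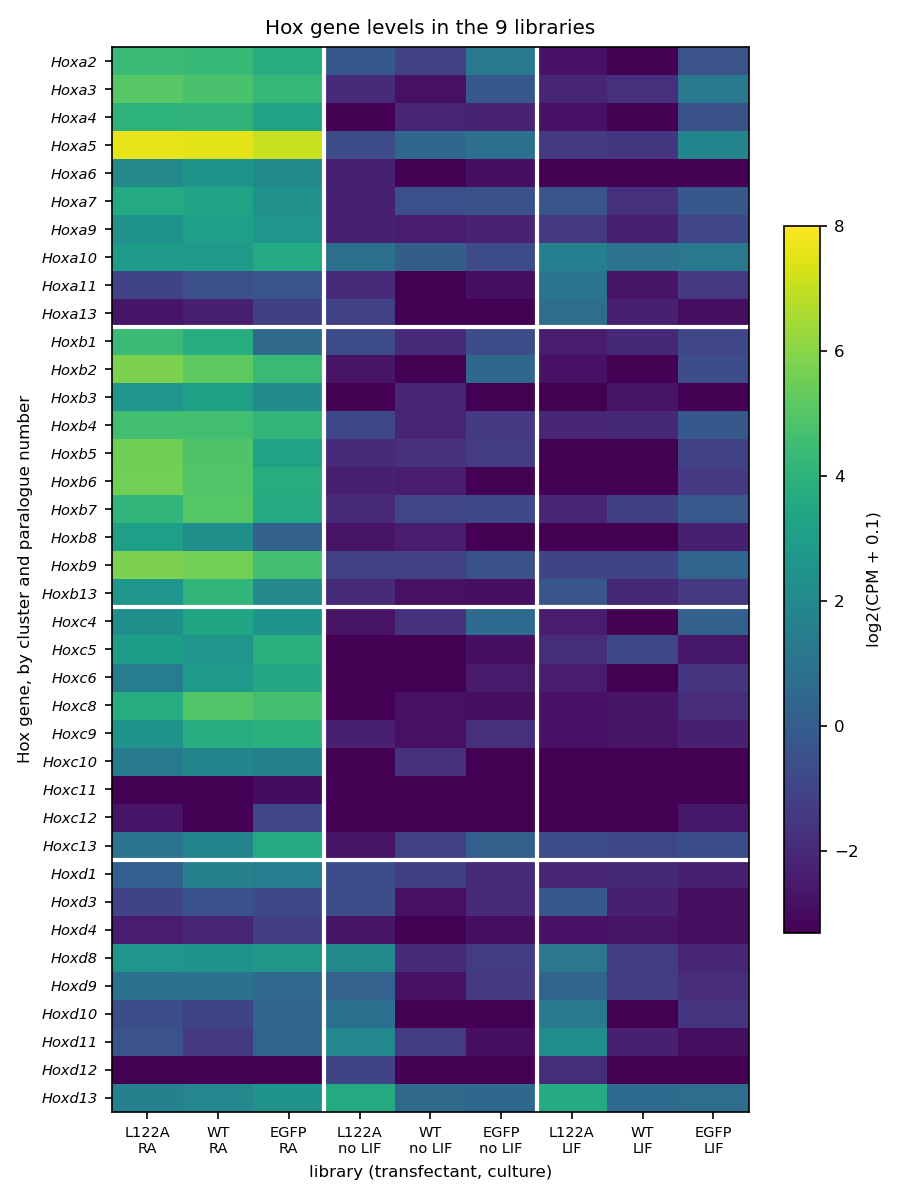
Level of 38 Hox genes (down the page, by cluster and paralogue number) in the 9 libraries (across), as log2(CPM + 0.1). The 3 RA columns are bright for most of Hoxa, Hoxb and Hoxc, while the posterior Hoxd genes are brightest in the L122A libraries without RA.

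Of the 39 genes, 32 reached 1 CPM in 3 libraries or more and were tested with edgeR's quasi-likelihood test, in a fit of culture and transfectant over the 9 libraries. Hoxa11, Hoxa13, Hoxc11, Hoxc12, Hoxd3, Hoxd4 and Hoxd12 did not reach this level. Because 19 of the 32 did so in the RA libraries alone, these had to be higher there. The counts that follow describe them and test nothing about the family. The 19 were Hoxa4, Hoxa6, Hoxa7, Hoxa9, Hoxb1, Hoxb3, Hoxb4, Hoxb5, Hoxb6, Hoxb7, Hoxb8, Hoxb13, Hoxc5, Hoxc6, Hoxc8, Hoxc9, Hoxc10, Hoxc13 and Hoxd1. The p-values given below for these 19 test nothing about their direction, which the filter fixed. RA against no-LIF called 29 higher, where 22.6% of all tested genes were called higher at a Benjamini-Hochberg adjusted p below 0.05. RA against LIF called 28 higher, where the share over all tested genes was 24.5%. None was called lower by edgeR or by DESeq2, which called 30 and 29 higher, although 21.9% and 23.8% of all tested genes were called lower by edgeR, and no edgeR log2 fold change among them was below 0. The median log2 fold change was 6.20 against no-LIF and 5.71 against LIF, while over all tested genes it was 0.02 and 0.01. With all 39 genes kept in the fit, 29 were higher against no-LIF (12.1% of all genes) and 27 against LIF (13.5%). Leaving out the L122A, WT or EGFP RA library left 13, 13 and 11 genes at the level for testing, of which 12, 7 and 8 were higher against no-LIF and 12, 9 and 9 against LIF. With the 32 genes kept in these fits, 30, 24 and 26 were higher against no-LIF and 31, 28 and 28 against LIF. With 1 library per combination, the error in these tests is the departure from additive effects of culture and transfectant.

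The Hoxa cluster, on the minus strand of chromosome 6, held the Hox gene of highest level. Hoxa5, which patterns the neck vertebrae and the lung, had 134, 121.8 and 80.1 FPKM in the L122A, WT and EGFP RA libraries, the highest of the 39 in each. In CPM it stood at 200.0, 187 and 134 in these libraries, against 0.506, 1.31 and 1.68 without LIF and 0.271, 0.246 and 3.41 with LIF. It rose by 7.47 on the log2 scale against no-LIF (SE 0.87, adjusted p = 8.06e-04, edgeR) and by 7.53 against LIF (SE 0.88, adjusted p = 6.91e-04). Its promoter is shown because it belongs to the most abundant Hox RNA of the series and is rich in CpG, with 28 CpG dinucleotides in 250 bases against a median of 12.5 over the 24 Hox promoter windows at hand and 6 over all 32851 windows. The RefSeq window lies at chr6:52204588-52204837 on the minus strand of GRCm38.p6, and capitals mark each CpG.
Hoxa5: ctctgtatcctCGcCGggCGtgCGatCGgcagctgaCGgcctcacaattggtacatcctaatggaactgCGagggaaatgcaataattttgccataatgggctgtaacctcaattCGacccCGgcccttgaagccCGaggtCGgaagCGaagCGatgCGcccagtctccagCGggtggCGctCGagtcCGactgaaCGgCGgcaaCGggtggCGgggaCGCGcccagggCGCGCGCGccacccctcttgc

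Hoxa2, which sets the identity of the second pharyngeal arch, reached 21.0, 18.8 and 13.1 CPM in the L122A, WT and EGFP RA libraries, against at most 2.21 CPM elsewhere, and rose by 4.50 against no-LIF (SE 0.83, adjusted p = 0.00377). A pairing of PBX and HOX proteins is the known switch of hindbrain Hox enhancers. The letters TGATTGAT or TGATTAAT, searched on both strands for such pairs, stood in 2 of 24 Hox windows, those of Hoxa2 and Hoxd11, and in 1.29% of all windows. The Hoxa2 window, chr6:52164832-52165081 on the minus strand of GRCm38.p6, is shown with that match in capitals, read on the opposite strand.
Hoxa2: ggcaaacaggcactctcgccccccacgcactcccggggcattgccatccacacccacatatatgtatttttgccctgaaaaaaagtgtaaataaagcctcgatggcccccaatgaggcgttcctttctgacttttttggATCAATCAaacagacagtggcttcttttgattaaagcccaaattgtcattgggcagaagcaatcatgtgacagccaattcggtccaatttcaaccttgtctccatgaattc

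The middle of the cluster followed the same order of cultures. Hoxa3, which is needed for the thymus and parathyroid, had 32.9, 26.5 and 18.5 CPM in the L122A, WT and EGFP RA libraries, and Hoxa4 had 15.6, 16.4 and 8.98 CPM. Hoxa3 contains Hoxa4 and several noncoding genes in the deposited annotation, and since the sources used here do not say whether counting used strand, reads cannot be told apart among them. The same limit holds for Hoxa5, Hoxa6 and Hoxa7, which AC015583.4 overlaps on the other strand. That gene had 11.3, 16.4 and 7.93 CPM in the L122A, WT and EGFP RA libraries. Hoxa7 stood at 12.2, 9.63 and 5.19 CPM, Hoxa9 at 5.41, 8.41 and 5.91 CPM and Hoxa6 at 3.93, 5.69 and 4.01 CPM in the L122A, WT and EGFP RA libraries. Hoxa6 had no count in any LIF library, so that its 451 RA counts amount to an at least 109-fold higher level, against a floor of 3 counts over the 3 LIF libraries. These 5 genes rose in both comparisons, by 4.36 to 7.50 on the log2 scale against no-LIF.

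The 5′ end of Hoxa changed least or stayed below the level for testing. Hoxa10, which patterns the uterus and lumbar spine, had 7.37, 6.97 and 12.03 CPM in the L122A, WT and EGFP RA libraries, against 1.72, 0.898 and 0.496 CPM without LIF and 2.89, 1.87 and 2.24 CPM with LIF. It was the called Hoxa gene of lowest change, with a log2 fold change of 3.16 against no-LIF (SE 0.50, adjusted p = 0.00190, edgeR) and 1.95 against LIF (SE 0.46, adjusted p = 0.00912). Hoxa11 and Hoxa13, genes of the limb and the genital tract, stayed at 0.393, 0.594 and 0.715 CPM and at 0.0561, 0.0938 and 0.342 CPM in the L122A, WT and EGFP RA libraries. Their highest value in the series was in the L122A LIF library, 1.98 CPM for Hoxa11 and 1.53 CPM for Hoxa13, and neither reached the level for testing.

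Hoxb, on chromosome 11 (96055629 to 96229570 in mm9, plus strand), was the cluster in which every gene separated by culture, the 5′ end included. Hoxb1 marks the fourth hindbrain segment and maintains its own expression together with PBX proteins. It had 21.1, 13.1 and 1.40 CPM in the L122A, WT and EGFP RA libraries, against 0.506, 0.163 and 0.534 CPM without LIF and 0.0902, 0.148 and 0.435 CPM with LIF. The EGFP RA library, although above all libraries without RA, was far below the other RA libraries. Hoxb1 rose by 4.77 on the log2 scale against no-LIF (SE 1.10, adjusted p = 0.00999, edgeR) and by 5.44 against LIF (SE 1.16, adjusted p = 0.00660). Its promoter is shown because this gene had the highest L122A to EGFP ratio with RA, and capitals mark TGATGGAT, a repeat of its known autoregulatory element. Those letters were chosen from knowledge of this promoter, so their presence 162 bases before the start is no finding; on either strand they occur in 0.67% of all windows. The window is chr11:96365508-96365757, plus strand, GRCm38.p6, from RefSeq.
Hoxb1: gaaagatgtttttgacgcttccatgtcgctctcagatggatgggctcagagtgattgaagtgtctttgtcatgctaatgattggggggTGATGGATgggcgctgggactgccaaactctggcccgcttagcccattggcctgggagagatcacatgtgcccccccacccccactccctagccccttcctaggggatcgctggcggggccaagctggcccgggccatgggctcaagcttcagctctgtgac

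Next to it, Hoxb2, another hindbrain gene, had 53.7, 37.0 and 19.6 CPM in the L122A, WT and EGFP RA libraries, against 0.0506, 0 and 1.34 CPM without LIF and 0.0451, 0 and 0.535 CPM with LIF. It rose by 7.18 against no-LIF (SE 1.26, adjusted p = 0.00333, edgeR). Hoxb3 and Hoxb4, a regulator of blood stem cells, differed less between transfectants: Hoxb4 had 23.7, 23.8 and 17.6 CPM in the L122A, WT and EGFP RA libraries and Hoxb3 had 5.97, 8.53 and 4.07 CPM. Hoxb5, which acts in the shoulder region and enteric nervous system, stood at 47.0, 29.7 and 9.11 CPM in these libraries and had no count in the L122A and WT LIF libraries. Hoxb6 had 48.6, 30.0 and 12.7 CPM in the L122A, WT and EGFP RA libraries, against at most 0.268 CPM elsewhere, and rose by 8.83 against no-LIF (SE 1.06, adjusted p = 9.06e-04). Hoxb8, known for its part in microglia and grooming behaviour in mice, had 8.24, 4.94 and 1.06 CPM in the same order. For Hoxb5, Hoxb6 and Hoxb8 the order was L122A, WT and then EGFP, as for Hoxb1 and Hoxb2.

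Hoxb7 and Hoxb13 departed from that order, with the WT RA library the highest, as for Hoxb3. Hoxb7 had 17.2, 32.7 and 12.03 CPM in the L122A, WT and EGFP RA libraries. Hoxb13, the 5′ gene of the cluster, known for its role in the tail and prostate, had 6.17, 17.2 and 3.89 CPM, against at most 0.722 CPM in the other cultures. It rose by 6.81 against no-LIF (SE 0.86, adjusted p = 9.06e-04, edgeR) and by 4.46 against LIF (SE 0.73, adjusted p = 0.00194), the highest changes among the tested genes of paralogue number 13. Hoxb9, a gene of the rib cage and mammary gland, had 53.7, 47.8 and 24.1 CPM in the L122A, WT and EGFP RA libraries and rose by 6.59 against no-LIF (SE 0.58, adjusted p = 3.78e-04). Hoxb5 and Hoxb6 overlap a noncoding gene on the other strand, AL645478.4, which had 37.0, 70.1 and 16.6 CPM in the RA libraries. Hoxb3 overlaps AL606824.2 and RP23-9G13.2, also on the other strand. With RA these had 8.97, 13.25 and 6.84 CPM and 1.12, 4.72 and 2.49 CPM in L122A, WT and EGFP. In each overlap the shares of the reads cannot be told apart.

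Hoxc, on chromosome 15 (102751561 to 102867272 in mm9, plus strand), had 7 of 9 genes above all other cultures with RA, and the EGFP RA library was the highest for Hoxc5, Hoxc6, Hoxc9, Hoxc12 and Hoxc13. Hoxc8, which patterns the thorax and forelimb motor neurons, had 12.7, 30.4 and 25.6 CPM in the L122A, WT and EGFP RA libraries, against 0, 0.0408 and 0.0381 CPM without LIF and 0.0451, 0.0492 and 0.167 CPM with LIF. It rose by 9.52 on the log2 scale against no-LIF (SE 0.53, adjusted p = 8.5e-05, edgeR) and by 7.90 against LIF (SE 0.47, adjusted p = 9.7e-05). Hoxc9, which represses forelimb motor neuron fates in the thoracic spinal cord, had 5.75, 13.3 and 15.0 CPM in the L122A, WT and EGFP RA libraries, and Hoxc6 had 2.58, 6.81 and 11.3 CPM. Hoxc5 stood at 7.88, 5.97 and 14.6 CPM, with 1 count in the 3 no-LIF libraries together. Hoxc4, the 3′ gene of the cluster, had 4.91, 10.2 and 5.75 CPM with RA and rose by 4.67 against no-LIF (SE 1.06, adjusted p = 0.00886). Hoxc4 was also present in the EGFP libraries of the other cultures, at 1.45 CPM without LIF and 1.003 CPM with LIF, against at most 0.204 CPM in the L122A and WT libraries there.

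At the 5′ end of Hoxc the genes diverged. Hoxc10, which acts in lumbar motor neurons, had 2.52, 3.50 and 3.08 CPM in the L122A, WT and EGFP RA libraries and no count with LIF, an at least 72.7-fold higher level by the same floor. Hoxc11 had a single count in all 9 libraries, and Hoxc12 reached at most 0.435 CPM, in the EGFP RA library. Hoxc13, known for its part in hair and nails, had 1.93, 3.31 and 12.1 CPM in the L122A, WT and EGFP RA libraries, against 0.0506, 0.367 and 0.992 CPM without LIF and 0.496, 0.443 and 0.569 CPM with LIF. It rose by 3.59 against no-LIF (SE 0.66, adjusted p = 0.00358, edgeR) and by 3.04 against LIF (SE 0.66, adjusted p = 0.00630).

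Hoxd, on chromosome 2 (74506366 to 74603200 in mm9, plus strand), had the fewest called genes, with 3 of 6 tested higher against no-LIF and 2 of 6 against LIF. Hoxd1, the 3′ gene, had 0.953, 2.91 and 2.61 CPM in the L122A, WT and EGFP RA libraries, against 0.557, 0.326 and 0.153 CPM without LIF, and rose by 2.65 (SE 0.72, adjusted p = 0.0181, edgeR). Hoxd8 had 6.08, 5.50 and 6.25 CPM with RA, against 4.20, 0.163 and 0.305 CPM without LIF and 2.17, 0.295 and 0.134 CPM with LIF. The RA libraries were alike for Hoxd8, and the L122A transfectant was high in the other cultures too. Hoxd9 had 1.77, 1.75 and 1.37 CPM with RA in L122A, WT and EGFP, against 1.06, 0.0408 and 0.267 CPM without LIF and 1.17, 0.295 and 0.167 CPM with LIF, its L122A libraries lying closer together than those of WT and EGFP. Hoxd8 rose by 3.38 against no-LIF (SE 0.90, adjusted p = 0.0169), and Hoxd9 by 2.43 (SE 0.83, adjusted p = 0.0413), while Hoxd9 against LIF gave 2.11 (SE 0.80, adjusted p = 0.0572). Hoxd3 and Hoxd4, which overlap each other in the annotation, had at most 0.767 CPM in any library.

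The posterior Hoxd genes, which pattern the digits and the genital region, were tested as Hoxd10, Hoxd11 and Hoxd13 and none passed. Hoxd13 had 3.00, 3.72 and 5.60 CPM in the L122A, WT and EGFP RA libraries, against 12.1, 1.43 and 1.26 CPM without LIF and 12.2, 1.48 and 1.54 CPM with LIF. In L122A the RA library was the lowest of the 3 cultures, and in WT and EGFP it was the highest. Its log2 fold change was 0.85 against no-LIF (SE 0.77, adjusted p = 0.397, edgeR), 0.97 for Hoxd11 (SE 1.41, adjusted p = 0.602) and 2.71 for Hoxd10 (SE 1.58, adjusted p = 0.192). Hoxd12 had 8 counts in the L122A no-LIF library, 4 in the L122A LIF library and 0 in the other 7 libraries.

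With RA, level followed paralogue number closely in Hoxa and hardly in Hoxb. Within the L122A, WT and EGFP RA libraries, Spearman's rho between paralogue number and FPKM was -0.88, -0.90 and -0.87 over the 11 Hoxa genes and -0.67, -0.68 and -0.43 over the 9 Hoxc genes. For the 10 Hoxb genes it was -0.26, -0.07 and -0.02, and for the 9 Hoxd genes 0.05, -0.32 and -0.07. Outside RA the Hoxa rho in L122A, WT and EGFP was -0.118, -0.514 and -0.818 without LIF and 0.6, 0.156 and -0.627 with LIF. In EGFP a falling Hoxa order was thus present without RA too, at much lower levels. These values are descriptions across genes that share a library and a chromosome. In Hoxa the level had its peak at Hoxa5 and ended at Hoxa13, with 0.06, 0.09 and 0.31 FPKM in the L122A, WT and EGFP RA libraries. In Hoxb the profile had several peaks, with Hoxb2 at 61.1, 41.0 and 19.9 FPKM, Hoxb6 at 43.0, 25.9 and 10.1 FPKM and Hoxb9 at 26.7, 23.2 and 10.7 FPKM.

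**Figure D2:**
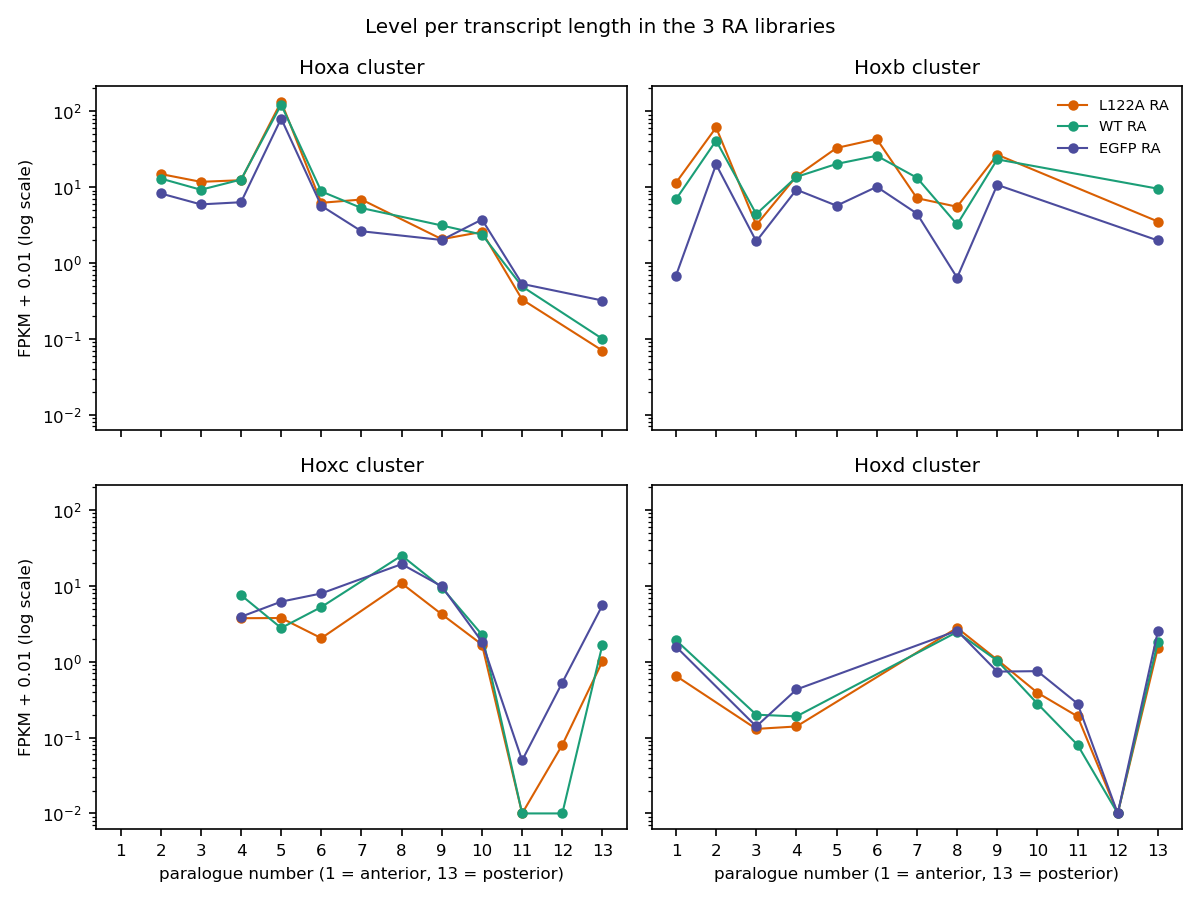
FPKM + 0.01 (log scale) of 38 Hox genes against their paralogue number, 1 panel per cluster, for the RA libraries of L122A, WT and EGFP (1 library each). Hoxa falls away past number 10, and Hoxd stays below 3 FPKM throughout. Hoxb is uneven up to number 9, with Hoxb8 at 5.5, 3.21 and 0.63 FPKM, and its number 13 gene is at 3.51, 9.52 and 1.97 FPKM.

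The makeup of the Hox RNA differed between transfectants as well as between cultures. With RA, Hoxa supplied 52.9%, 50.5% and 49.96% of the summed Hox FPKM in L122A, WT and EGFP. Hoxb supplied 40.45%, 35.8% and 25.3%, and Hoxc 5.29%, 11.98% and 21.3%, so that the L122A library had the most Hoxb and the least Hoxc and the EGFP library the reverse. Hoxd supplied 1.32%, 1.76% and 3.46%. Outside RA the sums were small, at 10.8, 4.02 and 11.02 FPKM without LIF in L122A, WT and EGFP against 515, 451 and 258 FPKM with RA. There Hoxd made up 69.8%, 21.1% and 8.08% of the sum without LIF and 61.2%, 31.9% and 7.77% with LIF. Hoxa made up 22.4%, 52.2% and 59.7% without LIF. The EGFP transfectant thus had a mainly Hoxa residue and the L122A transfectant a mainly Hoxd residue.

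**Figure D3:**
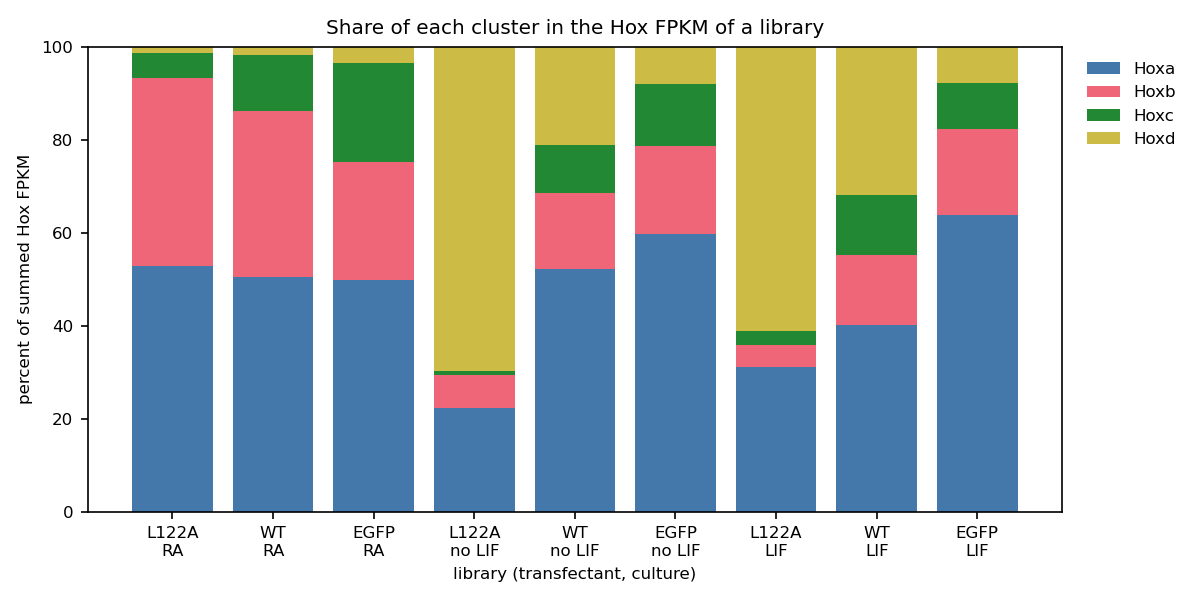
Percent of the summed Hox FPKM that each cluster supplied in the 9 libraries, grouped as RA, no-LIF and LIF with L122A, WT and EGFP in each. Hoxa and Hoxb fill most of the RA bars, and Hoxd is the largest block in the L122A bars without RA.

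Within the RA culture the transfectants were compared library against library. Such a ratio has no replicate check, its 95% Poisson interval covers counting error only, and both Nanog ratios share the EGFP library. A gene was called 2-fold apart when the higher library had at least 5 CPM. L122A was 2-fold higher than EGFP for 8 genes of 26 that could be read (among them Hoxa7, Hoxb1, Hoxb2, Hoxb5, Hoxb6, Hoxb8 and Hoxb9) and 2-fold lower for 4 (Hoxc6, Hoxc8, Hoxc9 and Hoxc13), where 7.98% and 11.3% of all readable genes were so. WT was 2-fold higher than EGFP for 7 genes of 26 (among them Hoxb1, Hoxb3, Hoxb5, Hoxb6, Hoxb7 and Hoxb13) and lower for 2 (Hoxc5 and Hoxc13), against 4.31% and 7.01% of all. L122A was 2-fold higher than WT for 0 of 25 genes and lower for 5 (Hoxb13, Hoxc4, Hoxc6, Hoxc8 and Hoxc9), against 3.45% and 3.83%.

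The ratios differed widely between genes. Hoxb1 was 15.1-fold higher in L122A than in EGFP with RA (interval 11.2 to 20.8) and 9.34-fold higher in WT than in EGFP (6.86 to 13). Hoxb8 followed with 7.80-fold in L122A (5.46 to 11.5), and Hoxb5 with 5.16-fold (4.55 to 5.86). Hoxa5, the most abundant Hox gene in FPKM, was 1.49-fold and 1.39-fold higher in L122A and WT. At the other end Hoxc13 was at 0.160 of the EGFP level in L122A (0.122 to 0.208) and 0.275 in WT (0.220 to 0.341), and Hoxc6 was at 0.229 in L122A (0.180 to 0.289). Hoxb13 separated the Nanog transfectants, at 0.359 of the WT level in L122A (0.306 to 0.421).

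By cluster, the summed CPM with RA was 2.70-fold higher in L122A than in EGFP for Hoxb (2.60 to 2.81), 1.94-fold higher for Hoxa, 0.437-fold for Hoxc (0.409 to 0.466) and 0.712-fold for Hoxd. In WT against EGFP the ratios were 2.32 for Hoxb (2.23 to 2.41), 1.62 for Hoxa, 0.836 for Hoxc and 0.809 for Hoxd. By position, genes numbered 1 to 4 summed to 329, 253 and 120 CPM in L122A, WT and EGFP with RA. Genes numbered 5 to 8 summed to 366, 348 and 236 CPM, and genes numbered 9 to 13 to 89.3, 107 and 86.9 CPM. The cluster sums, like the position sums, rest on their most abundant genes, and their ratios need not hold for the other members. Hoxb9 alone gave 53.7, 47.8 and 24.1 CPM of the genes numbered 9 to 13. The ES, fibroblast, endoderm, neural and mesoderm marker sums given above also differed between these 3 libraries, and their part in the ratios was not tested.

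**Figure D4:**
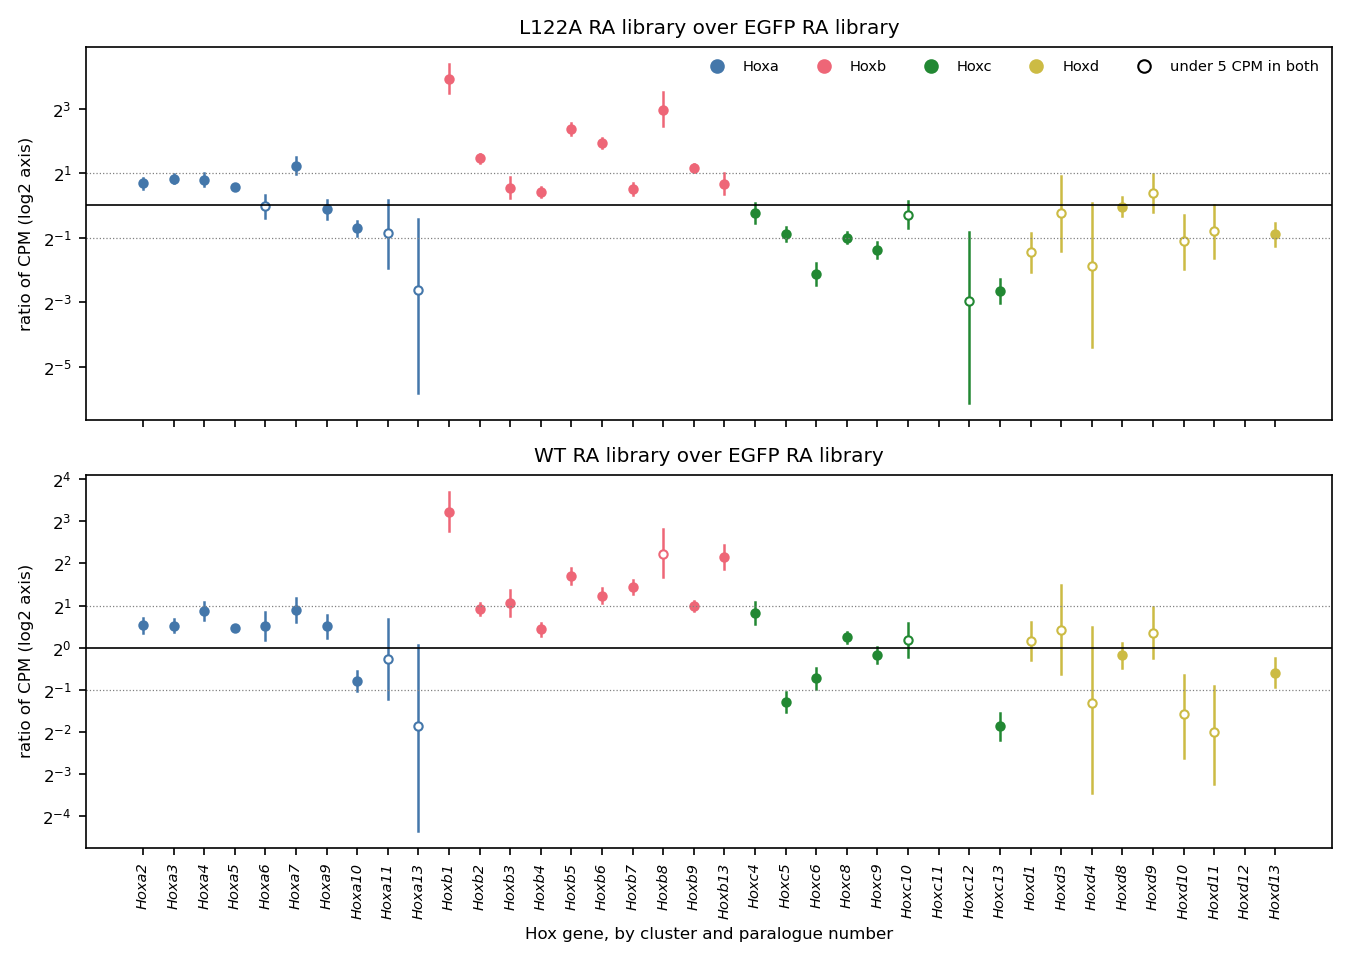
Ratio of CPM in the RA library of L122A to that of EGFP (top) and of WT to EGFP (bottom) for 38 Hox genes, on a log2 axis with 95% Poisson intervals; dotted lines mark 2-fold, open points genes below 5 CPM in both libraries, and genes with a count of 0 in either library are not drawn. Hoxb1, Hoxb5, Hoxb6 and Hoxb8 stand above 2-fold in L122A, and Hoxc13 stands below the lower line in both panels.

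Over all cultures the additive fit called no Hox gene between transfectants. L122A against EGFP had Hoxc13 as the gene with the smallest p (log2 fold change -2.08, SE 0.67, adjusted p = 0.142, edgeR), where 2.88% of all tested genes were called. DESeq2 called 5 there, Hoxd8, Hoxd11 and Hoxd13 higher and Hoxc4 and Hoxc13 lower in L122A. WT against EGFP also had Hoxc13 first (-1.36, SE 0.63, adjusted p = 0.445, edgeR), with 0.322% of all genes called, and DESeq2 called Hoxa3 lower in WT. L122A against WT had Hoxd8 first (2.71, SE 0.90, adjusted p = 0.923, edgeR), with 0% of all genes called, and DESeq2 called Hoxd10 higher in L122A. At an unadjusted p below 0.05 in edgeR there were 8, 0 and 5 Hox genes in these comparisons, in the order given. The share over all genes was not counted at that unadjusted level, for DESeq2 or for fits that leave out a library. Without the EGFP RA library edgeR called 4 genes lower in L122A than in EGFP (among them Hoxa3, Hoxb2 and Hoxc4) and 3 lower in WT (among them Hoxa3 and Hoxb2). Without the L122A RA library it called 2 higher in L122A than in EGFP, Hoxd8 and Hoxd13.

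Whether the response to RA differed between Nanog (L122A and WT together) and EGFP was tested as a difference of log2 fold changes, with both Nanog transfectants as 1 class. No Hox gene passed with edgeR. At an unadjusted p below 0.05 there were 10 and 15 genes, and 0.0429% and 0.00714% of all tested genes were called. Those shares are for calls at an adjusted p, and all genes were not counted at the unadjusted level. The calls depended on the method, and the share over all genes was not counted for the settings that follow. DESeq2 called 4 genes in the first (among them Hoxa3, Hoxb1 and Hoxb2). It called 8 in the second (among them these with Hoxa5, Hoxb5, Hoxb6 and Hoxb9). Each had the larger log2 fold change in the Nanog cells, which depends on the level without RA as well as with it. Hoxa5 stood at 200.0, 187 and 134 CPM with RA and at 0.271, 0.246 and 3.41 CPM with LIF, in L122A, WT and EGFP. In the same order Hoxb1 stood at 21.1, 13.1 and 1.40 CPM with RA and at 0.0902, 0.148 and 0.435 CPM with LIF. How far each culture's level made these differences was not tested. With edgeR, leaving out the WT RA library gave 2 and 4 calls, or 2 and 7 with the 32 genes kept, and leaving out the L122A RA library gave 2 and 2. Leaving out the L122A or the WT no-LIF library gave 1 call in the second, Hoxa5. Within the transfectants, Hoxb1 was 41.65-fold, 80.1-fold and 2.62-fold higher with RA than without LIF in L122A, WT and EGFP.

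Outside RA, the EGFP libraries had higher Hoxa, Hoxb and Hoxc sums than the Nanog libraries. The summed Hoxa level in L122A was 0.446 of that in EGFP without LIF and 0.485 with LIF, and in WT 0.343 and 0.189. The Hoxb ratios were 0.557 and 0.325 in L122A and 0.449 and 0.261 in WT, in the same order. For Hoxc they were 0.0727 and 0.429 in L122A and 0.308 and 0.446 in WT, on few counts. Hoxa5 stood at 0.271, 0.246 and 3.41 CPM in the L122A, WT and EGFP LIF libraries and Hoxa3 at 0.135, 0.197 and 2.27 CPM. Without LIF they stood at 0.506, 1.31 and 1.68 CPM and at 0.152, 0.0408 and 0.763 CPM. Hoxa4 without LIF, at 0, 0.122 and 0.114 CPM, was not higher in EGFP than in WT. In the EGFP no-LIF library the summed mesoderm markers were at 127 CPM, of which T (brachyury) held 105 CPM, and the part of this in its Hox levels was not tested.

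In L122A the posterior Hoxd genes were high in both cultures without RA. The summed Hoxd level was 24.4, 2.28 and 2.21 CPM in L122A, WT and EGFP without LIF and 23.6, 2.46 and 2.27 CPM with LIF. L122A was 11-fold higher than EGFP without LIF (interval 8.37 to 14.7) and 10.4-fold higher with LIF (8.05 to 13.6), while WT was 1.03-fold and 1.08-fold. Hoxd13 stood at 9.61-fold the EGFP level without LIF (6.66 to 14.3) and 7.95-fold with LIF (5.80 to 11.1), and was the only one of the 39 to pass 10 CPM in a library without RA. Hoxd11 had 3.75, 0.286 and 0.0381 CPM in L122A, WT and EGFP without LIF and 4.42, 0.0984 and 0.0335 CPM with LIF, the EGFP values being 1 count each. Hoxd10 had 33 counts in L122A without LIF and 0 in EGFP, an at least 14.6-fold higher level. The limb genes Hoxa11 and Hoxa13 were at 1.98 and 1.53 CPM in the L122A LIF library, but at 0.152 and 0.354 CPM in the L122A no-LIF library. Evx2, the gene next to Hoxd13, was at 0.0506 CPM in the L122A no-LIF library and at 0 in the L122A LIF library.

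**Figure D5:**
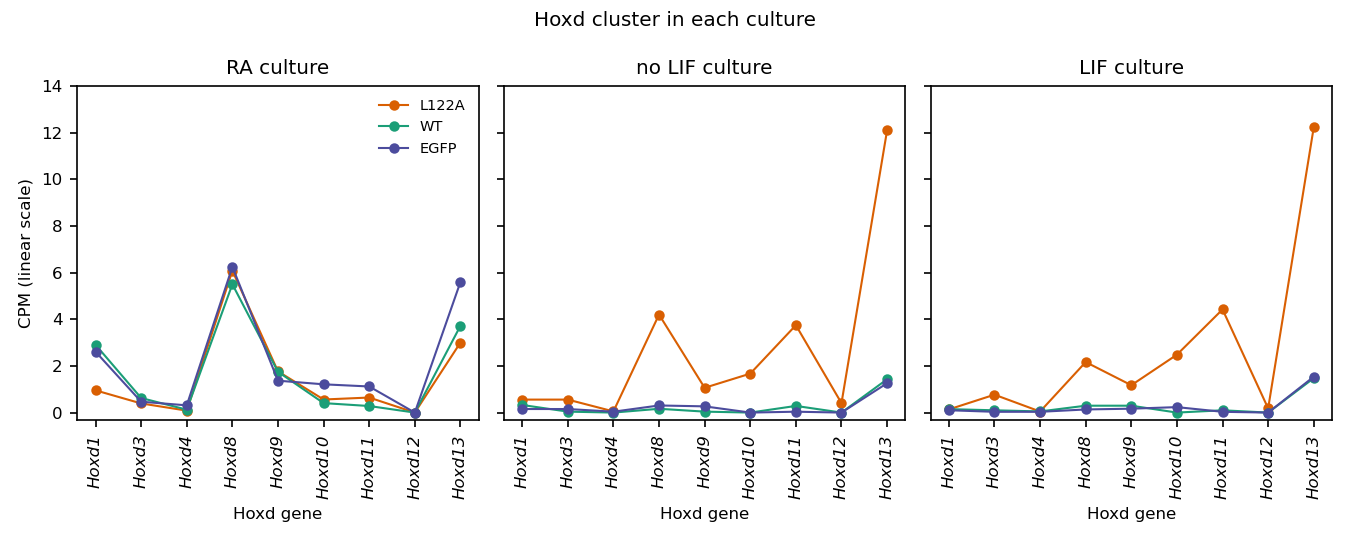
CPM (linear) of the 9 Hoxd genes in the RA, no-LIF and LIF cultures (panels) for L122A, WT and EGFP (1 library each). In the cultures without RA the L122A points stand above WT and EGFP for Hoxd13 (12.1 and 12.2 CPM), Hoxd11, Hoxd10 and Hoxd8, and with RA the transfectants lie close together.

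Removing LIF alone left the Hox genes without a called change. No-LIF against LIF called 0 of 32 with edgeR, DESeq2 and limma alike, where edgeR called 0.0714% of all tested genes. Of the 32, 19 had reached the level for testing through the RA libraries alone, so their counts in these cultures were few. With the RA libraries left out, only 4 Hox genes reached that level, and 0 of them were called. The missing calls therefore say little about most of the family. At an unadjusted p below 0.05 in edgeR there were 4 Hox genes, and all genes were not counted at that level. The gene with the smallest p was Hoxc5 (log2 fold change -3.63, SE 1.24, adjusted p = 0.432), which rested on 0, 0 and 1 counts in the L122A, WT and EGFP no-LIF libraries and 4, 9 and 2 counts in the LIF libraries.

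Of 25 other genes annotated in the 4 spans, 11 were tested, all in the Hoxa and Hoxb spans, and 10 were higher and 1 lower with RA in both comparisons. Over all tested genes 22.6% were higher and 21.9% lower against no-LIF, and 24.5% and 23.8% against LIF. Several of the 10 reached the level for testing through the RA libraries alone, which fixes their direction. AC091106.2, within Hoxa3, had 23.7, 19.3 and 23.5 CPM in the L122A, WT and EGFP RA libraries. The gene that fell was AL645478.2 in the Hoxb span, with 3.08, 2.38 and 2.39 CPM with RA in L122A, WT and EGFP, against 5.77, 6.36 and 4.84 CPM without LIF (log2 fold change -1.11, adjusted p = 0.0166, edgeR). Among 18 tested protein-coding genes that flank the clusters, 4 were higher and 5 lower than without LIF, near the 22.6% and 21.9% of all tested genes. Skap2, beyond Hoxa, rose by 1.13 on the log2 scale, and Cbx1, a heterochromatin protein gene beyond Hoxb, fell by 1.28.

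Of 19 tested genes known to regulate Hox transcription, 8 were higher and 2 lower with RA than without LIF. Over all tested genes the shares were 22.6% higher and 21.9% lower. Rarb, a retinoic acid receptor, had 80.6, 115 and 73.5 CPM in the L122A, WT and EGFP RA libraries, against at most 0.911 CPM elsewhere, and rose by 7.09 (SE 0.31, adjusted p = 4.41e-05, edgeR). It was tested through the RA libraries alone, which fixes its direction. Cyp26a1, the enzyme that degrades retinoic acid, had 481, 498 and 103 CPM with RA, with the EGFP library the lowest, and rose by 8.001 (SE 1.34, adjusted p = 0.00278). Among the others, Bmi1, a Polycomb gene, Kmt2a, a Trithorax gene, Kdm6b, a histone demethylase gene, Gdf11 and Rxra rose as well. Lin28a fell by 3.80 and Gmnn, which encodes geminin, by 1.62. The Polycomb genes Ezh2, Eed, Suz12 and Rnf2 were not called against no-LIF. Against LIF, 8 of the 19 were higher and 3 lower, where the shares over all tested genes were 24.5% and 23.8%. Eed was among the lower (log2 fold change -1.29, adjusted p = 0.00185, edgeR). The Cdx genes, regulators of trunk Hox genes, were not at a level to be tested, Cdx1 being highest at 5.16, 1.56 and 0.280 CPM in the L122A, WT and EGFP RA libraries.

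RefSeq promoter windows of GRCm38.p6 were at hand for 22 of the 39 genes, as 24 windows of 250 bases before the start. Binding motifs of the retinoic acid receptors were searched on both strands as the direct repeats DR5 and DR2. Neither occurred in the 24 windows, and over all windows they occurred in 0.0883% and 0.174%. No match overlapped a match of another motif. The CDX letters TTTATGG or TTTATTG, on both strands, occurred in 2 of 24 windows, those of Hoxd4 and Hoxb8, and in 6.51% of all.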

How the data were processed

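The submitters' processing notes name TopHat2 2.0.11 as the aligner and mm9 as the build. The raw count per gene and the FPKM per gene in 9 libraries were made by the authors and are used as deposited. The counting program, read filters and use of strand are not stated in the material at hand. In every library the FPKM of all genes above 5 FPKM equalled the count per length and per total count within 1%. The columns of the RA and no-LIF cultures were matched to the labels by name. The columns of the LIF culture carry a name that no label holds and were assigned by elimination, and L122 was read as L122A.

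Counts were tested with edgeR 4.0.16 in R 4.3.3 (TMM factors, quasi-likelihood, Benjamini-Hochberg adjustment over 13996 genes with 1 CPM or more in 3 libraries or more; p below 0.05 called). The fit was culture plus transfectant over 9 libraries, with 4 residual degrees of freedom. For the difference in response both Nanog transfectants formed 1 class, with 3 residual degrees of freedom. SE is the log2 fold change over the root of F. P-values measure only the spread between these libraries, which may be technical. Ratios of single libraries have exact 95% Poisson intervals for counting error alone. Calls of 2-fold used a prior count of 2. DESeq2 1.42.0 and limma 3.58.1 on log2(FPKM + 1) were alternatives. The edgeR fits were run on simulated counts of a fixed spread that followed the fitted model. That checks the working of the fits, and not whether additive effects suit these libraries. Figures were drawn in Python 3.11.15 with matplotlib 3.10.9.

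Results for 1 member and 1 listed regulator are not reported here, though counts and sums include them. The members and lists were chosen with earlier results of these data known. Every other member is given by its levels. The rule gives fold changes for called genes and, where none was called, for the gene with the smallest p; those of the uncalled Hoxd9, Hoxd10, Hoxd11 and Hoxd13 were chosen after their values were seen. The regulator, flanking-gene and marker lists were written from general knowledge. RefSeq promoter windows and their coordinates are from GRCm38.p6, while cluster spans are from the deposited mm9 table.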

Additional observations from a re-analysis of the deposited data

Results flagged for a closer look

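The L122A transfectant went the opposite way from WT and EGFP in 3 genes, counting those where the 95% Poisson interval of each transfectant's ratio was clear of 1. Values are single-library log2 ratios with a prior count of 2. For Hoxd13 the L122A log2 ratio of RA to no-LIF was -1.985 and of RA to LIF -2.001, while WT and EGFP had more with RA in both. For Hoxd10 the L122A ratios were -1.458 and -2.009. For Hoxa11 the L122A log2 ratio of RA to LIF was -2.142, on 14 counts with RA and 44 with LIF. The difference of L122A from both others was not tested in these 3 genes. For L122A and WT together against EGFP, the difference in log2 fold change of Hoxd13 was -3.15 for RA against no-LIF (SE 2.09, adjusted p = 0.716, edgeR) and -2.89 for RA against LIF (SE 2.07, adjusted p = 0.624). That of Hoxd10, which had no count in EGFP without LIF, did not pass either (adjusted p = 0.699 and 0.706), and Hoxa11 was below the level for testing.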

How the results depend on the processing

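No paired analysis was possible because the groups share fewer than 2 replicate numbers; the transfectant is a term of the fit, and without it 26 Hox genes were called for RA against no-LIF and 27 for RA against LIF. RLE factors changed no count of called Hox genes. Left out 1 library at a time, the called genes numbered 9 to 29 for RA against LIF and 7 to 29 for RA against no-LIF (28 to 31 and 24 to 30 with the 32 genes kept); WT against EGFP had 0 to 3 and L122A against EGFP 0 to 5 (4 without EGFP RA, 5 with the 32 genes kept, 2 without L122A RA). For the difference in response between Nanog and EGFP, RA against no-LIF had 0 to 2 and RA against LIF 0 to 7 (4 without WT RA, 7 with the 32 genes kept). Keeping the 32 genes was chosen after seeing the data. Shares of all genes called in these tests were counted only for the main edgeR fits and, with RA, for edgeR with no filter. DESeq2 called 1 for WT against EGFP, 5 for L122A against EGFP, 1 for L122A against WT, and 4 and 8 for the differences. Limma called 2 and 1 and edgeR with no filter 9 and 16 for the differences, where the responses of Hoxd11 and Hoxd13 in both, and of Hoxd10 against no-LIF, were lower in Nanog. With CPM for FPKM, rho with paralogue number was 0.127 for Hoxb in WT with RA, the opposite sign, -0.134 for Hoxb in L122A, -0.764 for Hoxa in EGFP and -0.183 for Hoxd in WT. The cause of each shift was not tested, apart from the fewer genes at the level for testing without an RA library. Genes under about 1 CPM rest on few counts, and 1 library per combination gives no replicate error within a culture.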
